A study of Mus musculus with 4 samples.

Results

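Natriuretic peptides and fetal stress genes were examined in the left ventricle of KDM5B knockout (KO) and wild-type (WT) mice after myocardial infarction (MI). The members were Nppa, Nppb, Myh7, Acta1, Ankrd1 and Rcan1, and they were chosen by name as all non-control probes whose gene name in the array files was one of these. This gave 10 probes for 6 genes, out of 41174 probes on the array, and all 10 were tested among 28304 tested probes for 15062 named genes. The WT and KO mice were males of 8 to 10 weeks per the study's design text, infarcted by tying the left anterior descending (LAD) coronary artery, and the ventricle was taken 7 days later. Each group had 2 Agilent one-colour arrays, numbered 2 and 3 in the titles and called here WT 2, WT 3, KO 2 and KO 3. KO mice carried a CRISPR/Cas9 deletion around the JmjC domain of Kdm5b, a histone demethylase, in every cell of the body, with a frameshift, and the WT strain was C57BL/6. No sham-operated heart was on these arrays, so the response to MI itself was not measured, and nothing states whether an array held RNA of 1 animal or of several. The p-values therefore measure only the spread between these samples.

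The 6 genes are standard readouts of a stressed ventricle. Nppa and Nppb encode the hormones ANP and BNP, which heart muscle secretes under stretch and which lower blood pressure and promote salt excretion through receptors that make cyclic GMP. Myh7 (the slow, beta form of myosin heavy chain) and Acta1 (skeletal alpha-actin) are contractile isoforms of the fetal mouse heart that return in injured adult muscle. Ankrd1 encodes an ankyrin repeat protein that binds titin and responds to stretch, and Rcan1 encodes an inhibitor of the phosphatase calcineurin and is itself a target of calcineurin and NFAT.

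The probes that carry the results are shown first, since 4 of the genes had a pair of probes and these did not always give the same direction. Each probe was 60 bases long, positions are given on mm9 as in the array files, and the place of a probe in exons was not determined. Probes with 2 or more reading frames free of stop codons and no AATAAA polyadenylation signal are shown whole and the others by a stretch of 30 bases; capitals mark that signal. The brighter Nppa probe lay at chr4:147376024-147376083 on the plus strand. The dimmer one spanned 163 bases of the genome, chr4:147375047-147375209, so its sequence runs across a gap.
Nppa, dimmer probe: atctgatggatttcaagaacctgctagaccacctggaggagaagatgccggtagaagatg
Nppa, brighter probe, bases 1 to 30: cttcctgccttcatctatcacgatcgatgt
The Nppb probes lay at chr4:147360489-147360548 (brighter) and chr4:147360064-147360123 (dimmer), the Acta1 probe at chr8:126416197-126416256 on the minus strand, and the Ankrd1 probe at chr19:36186809-36186868 on the minus strand.
Nppb, brighter probe: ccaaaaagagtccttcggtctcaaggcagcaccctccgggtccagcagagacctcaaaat
Nppb, dimmer probe: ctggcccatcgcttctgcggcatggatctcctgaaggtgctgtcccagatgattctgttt
Acta1 probe: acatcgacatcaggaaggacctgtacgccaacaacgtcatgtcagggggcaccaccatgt
Ankrd1 probe, bases 1 to 30: cccctttgtgttctcacttgcataaagcta
The Myh7 probes, chr14:55589526-55589585 and chr14:55589531-55589590 on the minus strand, shared 55 of their 60 bases and are nearly the same measurement, and both contain the stretch shown here.
Myh7, stretch in both probes: aggtggaagcagAATAAAgcaattttcctt
The brighter Rcan1 probe lay at chr16:92392763-92392822 on the minus strand. The dimmer one spanned 1297 bases, chr16:92396243-92397539, and crosses a gap. The file listed 2 RefSeq transcripts for each Rcan1 probe, so neither was tied to 1 transcript alone. Whether the probes separate the isoforms of this gene was not determined.
Rcan1, brighter probe, bases 1 to 30: tgggaactgttggttgagacagtttttcac
Rcan1, dimmer probe: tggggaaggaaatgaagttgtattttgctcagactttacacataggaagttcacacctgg

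Every level is a log2 processed signal minus the log2 75th percentile of its array, and a difference is the KO mean minus the WT mean of these levels. For a gene with a pair of probes, the brighter one is the gene's value. Levels are compared between arrays within a probe, never between probes. None of the 6 genes was called at a limma adjusted p under 0.05 with a fold change over 2, and the same was true of all 28304 tested probes (0%). The lowest adjusted p over all probes was 0.9999. At an unadjusted p under 0.05 stood 0 of the 6 genes, against 1.45% of all tested probes. With 2 arrays against 2, an exact two-sided permutation test cannot go below p = 0.333.

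Some facts about the arrays bear on these genes. Kdm5b was lower on both KO arrays, at -0.87 and -1.81 in WT and -2.40 and -2.26 in KO, a difference of -0.996 (standard error 0.40, limma adjusted p = 0.9999). The difference was -1.53 at number 2 and -0.46 at number 3, and the probe stayed well above background on all 4 arrays. Of all tested probes, 10.9% had both KO arrays below both WT arrays. The amount of muscle signal differed between arrays of 1 genotype: the mean of 18 cardiomyocyte markers was 6.64 (WT 2), 5.64 (WT 3), 7.65 (KO 2) and 4.94 (KO 3). All 18 were of opposite sign at the array numbers, beside 24.8% of all tested probes higher and 21.7% lower in KO at both. The markers' median difference was 1.03 at number 2 and -0.69 at number 3. Macrophage markers ran the other way, with list means of 3.51, 3.99, 2.28 and 4.33. In bulk ventricle, fewer cells of a type and less RNA per cell cannot be told apart. Atrial markers stood apart on KO 2. The atrial light chain gene Myl7 was -0.70 (WT 2), -0.35 (WT 3), 6.39 (KO 2) and 0.23 (KO 3), and Myl4 was -0.63, -0.55, 5.46 and -0.65. Sarcolipin (Sln) was 5.95 on KO 2 and -2.46 on KO 3, with -4.95 on WT 3 and not well above background on WT 2. Mybphl was well above background on KO 2 only, at 1.04, and Bmp10 on none, so 5 of the 6 atrial markers were detected on KO 2 and 3 or 4 on the others. The mean of the 4 tested atrial markers was 4.28 on KO 2 and between -2.78 and -2.11 on the other 3 arrays. Xist was high on both arrays numbered 2 and at background on both numbered 3, while Y-linked Ddx3y ran the other way, although every sample is labelled male. The 4 arrays lay on 1 slide with WT at positions 1 and 2 and KO at positions 3 and 4, so position and genotype cannot be told apart.

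Nppa, the ANP gene, differed between the genotypes by less than the spread of the arrays, and its probes disagreed in direction. The brighter probe was 8.81 (WT 2), 8.54 (WT 3), 9.24 (KO 2) and 8.56 (KO 3). KO 2 was the highest array, and KO 3 lay between the WT arrays, so the groups overlapped. The WT mean was 8.68 ± 0.19 (SD, n = 2) and the KO mean 8.90 ± 0.48 (SD, n = 2), a difference of 0.22 (standard error 0.33, limma adjusted p = 0.9999). Within the array numbers the difference was 0.43 at number 2 and 0.02 at number 3. Nppa is also an abundant transcript of atrial muscle, and the array with its highest value, KO 2, was the one with the atrial markers; the part of that signal in the Nppa value was not tested. Without KO 2 the difference was -0.12.

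The dimmer Nppa probe gave 7.43 (WT 2), 7.30 (WT 3), 7.37 (KO 2) and 6.62 (KO 3). KO 3 was the low array and the other 3 lay within 0.12 of each other. Here KO minus WT was -0.37 (standard error 0.34, limma adjusted p = 0.9999), -0.06 at number 2 and -0.68 at number 3. Both Nppa probes were printed in 10 spots per array, which gives the spread between spots. On the unscaled log2 signal the dimmer probe's spots had an SD of 0.023 to 0.045 within an array, and its means were 17.20, 17.23, 16.62 and 16.41 for WT 2, WT 3, KO 2 and KO 3. Before scaling, both KO arrays therefore lay below both WT arrays, though unscaled signals are not corrected for differences in labelling or scanning between arrays. The spot SD measures spread within an array and not between samples. Both Rcan1 probes were also placed so before scaling, the brighter at 12.73 and 12.49 in WT and 11.72 and 11.80 in KO. The share of all tested probes placed so before scaling is not given here. The 75th percentile of KO 2 was 607.6, against 876.3, 976.1 and 885.2 on WT 2, WT 3 and KO 3, and dividing by it brought KO 2 back to the WT level. The brighter probe's means before scaling were 18.58, 18.47, 18.49 and 18.35, with a spot SD of 0.08 to 0.131. Its range over the 4 arrays was thus narrower than that of the dimmer probe. The brightest spots of this probe reached 56.34% to 65.39% of the saturation value, against 16.86% to 27.07% for the dimmer probe, and no pixel was saturated in either.

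**Figure D1:**
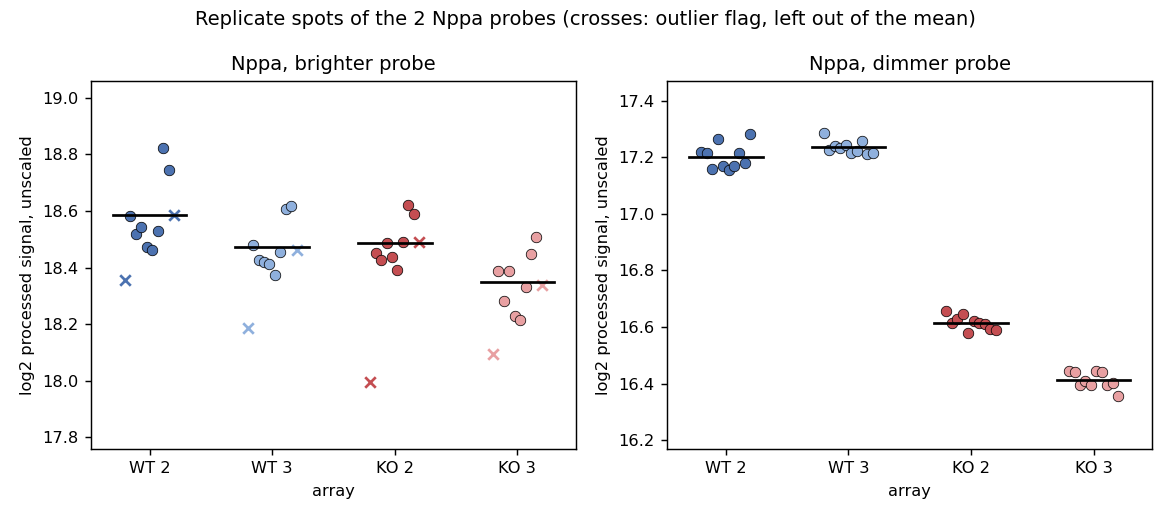
Replicate spots of the brighter (left) and dimmer (right) Nppa probe on each array, as unscaled log2 processed signal; both vertical axes span the same number of log2 units. Points are spots kept, crosses are spots with an outlier flag (2 of 10 per array for the brighter probe) and bars are means. The dimmer probe separates the WT arrays (17.20 and 17.23) from the KO arrays (16.62 and 16.41) before scaling, while the spots of the brighter probe overlap on all 4 arrays. After scaling the genotypes overlap for both probes, and the share of all tested probes separated before scaling is not given.

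Nppb, the BNP gene, lies next to Nppa on chromosome 4, and its probes gave nearly the same picture as each other. The brighter probe was 6.05 (WT 2), 5.50 (WT 3), 6.45 (KO 2) and 5.18 (KO 3). Both extremes were KO arrays and the WT arrays lay between them. The genotypes differed by 0.03 (standard error 0.55, limma adjusted p = 0.9999), between a WT mean of 5.78 ± 0.39 (SD, n = 2) and a KO mean of 5.81 ± 0.90 (SD, n = 2). This was 0.40 at number 2 and -0.33 at number 3. The dimmer probe read 5.89, 5.41, 6.23 and 4.95 in the same order of arrays. Its difference was -0.06 with a standard error of 0.54, made of 0.34 at number 2 and -0.46 at number 3. Whether the balance of the peptides changed could not be resolved. With 2 arrays against 2, the exact permutation test of any ratio here cannot go below p = 0.333. The log2 ratio of Nppa to Nppb was 0.19 higher in KO on average (0.04 at number 2, 0.34 at number 3, exact permutation p = 0.667).

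Myh7 had almost the same mean in both genotypes. Its brighter probe was 8.31 (WT 2), 7.38 (WT 3), 8.30 (KO 2) and 7.19 (KO 3). The arrays fell in pairs by number and not by genotype, with WT 2 and KO 2 within 0.01 of each other. KO minus WT was -0.10 (standard error 0.57, limma adjusted p = 0.9999), with a WT mean of 7.85 ± 0.66 (SD, n = 2) and a KO mean of 7.74 ± 0.79 (SD, n = 2). The overlapping second probe read 7.80, 7.33, 8.25 and 7.11 and gave 0.11 with a standard error of 0.49, so these nearly identical probes also differed in sign. The classical readout is the ratio of Myh7 to Myh6, the adult alpha-myosin gene, which was 6.59 (WT 2), 5.47 (WT 3), 7.68 (KO 2) and 3.99 (KO 3). The log2 ratio of Myh7 to Myh6 was 1.11 lower in KO at number 2, a change of -1.11, and 1.29 higher at number 3. The mean change was 0.09 (exact permutation p = 1). Its SD was 0.13 in WT and 1.82 in KO, so the KO arrays set the spread.

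Acta1 gave the largest difference among the 6 genes, and also the widest spread. Its probe was 5.12 (WT 2), 3.16 (WT 3), 6.53 (KO 2) and 3.90 (KO 3). WT 2 was above KO 3, so the groups overlapped, but within each number the KO array was the higher. The WT mean was 4.14 ± 1.39 (SD, n = 2) and the KO mean 5.22 ± 1.86 (SD, n = 2). KO exceeded WT by 1.08, or 2.11-fold (standard error 1.22, limma adjusted p = 0.9999), made of 1.42 at number 2 and 0.74 at number 3. Acta1 was the only member over 2-fold, 1 of 6, beside 1.0% of all tested probes over 2-fold higher and 2.35% over 2-fold lower. At number 2 alone it was again the only member past 2-fold, beside 6.19% of tested probes higher and 8.84% lower. At number 3 no member passed 2-fold, beside 2.23% higher and 1.78% lower. Without KO 2 the Acta1 difference was -0.24, and without WT 3 it was 0.099. Relative to the mean of the cardiomyocyte markers, Acta1 was -1.52 (WT 2), -2.48 (WT 3), -1.11 (KO 2) and -1.04 (KO 3). On that scale both KO arrays were above both WT arrays, with a difference of 0.92 (standard error 1.58). The share of all tested probes with such a separation on that scale is not given here. The log2 ratio to Actc1, the cardiac alpha-actin gene, was 0.71 higher in KO at number 2 and 1.26 higher at number 3, by 0.99 on average (exact permutation p = 0.667). Actc1 itself differed by 0.09 and Acta2, the smooth muscle actin gene, by 0.33, with standard errors of 0.66 and 1.07.

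Ankrd1 varied over the 4 arrays by 2.07, nearly all of it within the genotypes. It was 7.50 (WT 2), 6.26 (WT 3), 7.79 (KO 2) and 5.72 (KO 3). As with Nppb, the KO arrays were the highest and the lowest. KO minus WT was -0.12 (standard error 0.90, limma adjusted p = 0.9999), 0.29 at number 2 and -0.54 at number 3. Relative to the cardiomyocyte markers the range shrank to 0.72, the smallest of the 6 genes on that scale, with 0.86, 0.62, 0.14 and 0.78 on WT 2, WT 3, KO 2 and KO 3. The range of Acta1 also shrank there, from 3.38 to 1.44. It grew for the others: from 0.70 to 2.03 for Nppa, 1.27 to 1.44 for Nppb, 1.12 to 1.60 for Myh7 and 0.94 to 2.26 for Rcan1. The Ankrd1 paralog Ankrd2 was -3.55, -4.03, -2.51 and -3.42, a difference of 0.83 (standard error 0.42, limma adjusted p = 0.9999). Both its KO arrays were above both WT arrays, as in 13.1% of all tested probes. The paralog Ankrd23 differed by 0.12.

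Rcan1 was the only member whose groups did not overlap. The brighter probe was 2.95 (WT 2), 2.56 (WT 3), 2.47 (KO 2) and 2.01 (KO 3). Both KO arrays were lower than both WT arrays, though KO 2 lay only just under WT 3. The WT mean was 2.76 ± 0.28 (SD, n = 2) and the KO mean 2.24 ± 0.32 (SD, n = 2). KO minus WT came to -0.51, or 1.43-fold lower (standard error 0.30, limma adjusted p = 0.9999), and it was similar at number 2 (-0.48) and number 3 (-0.55). This is 1 of 6 genes with both KO arrays below, beside 10.9% of all tested probes, and 0 of 6 with both KO arrays above, beside 13.1%. The dimmer probe pointed the same way at both numbers, by -0.27 and -0.28, but its values of -1.09 and -1.68 in WT and -1.36 and -1.95 in KO overlapped. Leaving out any 1 array kept the brighter probe's difference between -0.74 and -0.29. Relative to the cardiomyocyte markers, however, Rcan1 was -3.69 (WT 2), -3.08 (WT 3), -5.18 (KO 2) and -2.92 (KO 3). On that scale the sign turned between the numbers, from -1.49 to 0.15. The paralogs Rcan2 and Rcan3 differed by 0.05 and -0.11, with standard errors of 0.87 and 0.28.

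**Figure D2:**
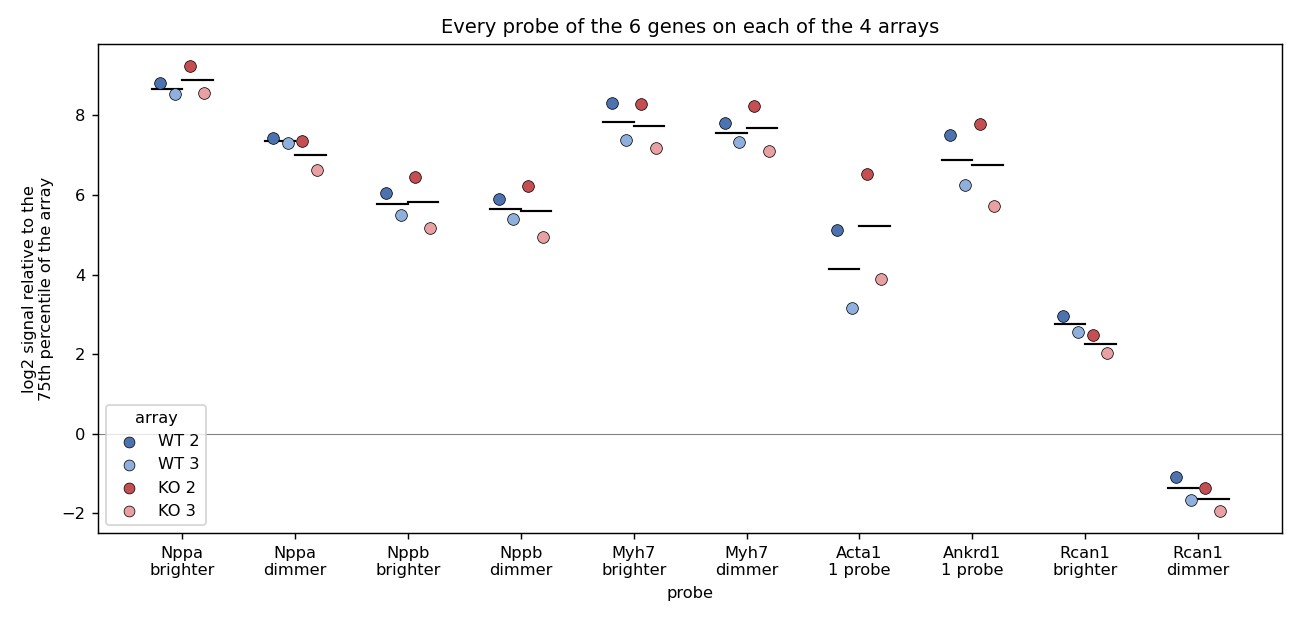
Log2 signal above its array's 75th percentile (vertical axis) for each of the 10 probes (horizontal axis); points are the 4 arrays and bars the means of 2 arrays per genotype. Levels of different probes are not comparable. Only the brighter Rcan1 probe has both KO arrays (2.47 and 2.01) below both WT arrays (2.95 and 2.56).

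All 6 genes were higher on number 2 than on number 3, in WT and again in KO, beside 35.1% of all tested probes. By genotype 3 of the 6 were higher and 3 lower in KO on average, or 4 and 6 of the 10 probes, and the median of all tested probes was 0.02. Nppa and Acta1 were higher in KO at both numbers, 2 of 6, beside 24.8% of all tested probes. Myh7 and Rcan1 were lower at both, 2 of 6, beside 21.7%, and Nppb and Ankrd1 had opposite signs. The order KO 2, WT 2, WT 3, KO 3 of the cardiomyocyte markers, whose mean spanned 2.71, was also the order of Nppb and Ankrd1. Nppa and Acta1 differed from it only in the last places, where KO 3 stood above WT 3, and Myh7 only in the first, where WT 2 and KO 2 were nearly level. Rcan1 kept the order WT 2, WT 3, KO 2, KO 3. The part of the muscle signal in these orders was not tested. The span over the 4 arrays was smallest for Nppa (0.70), Rcan1 (0.94), Myh7 (1.12) and Nppb (1.27), and larger for Ankrd1 (2.07) and Acta1 (3.38).

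**Figure D3:**
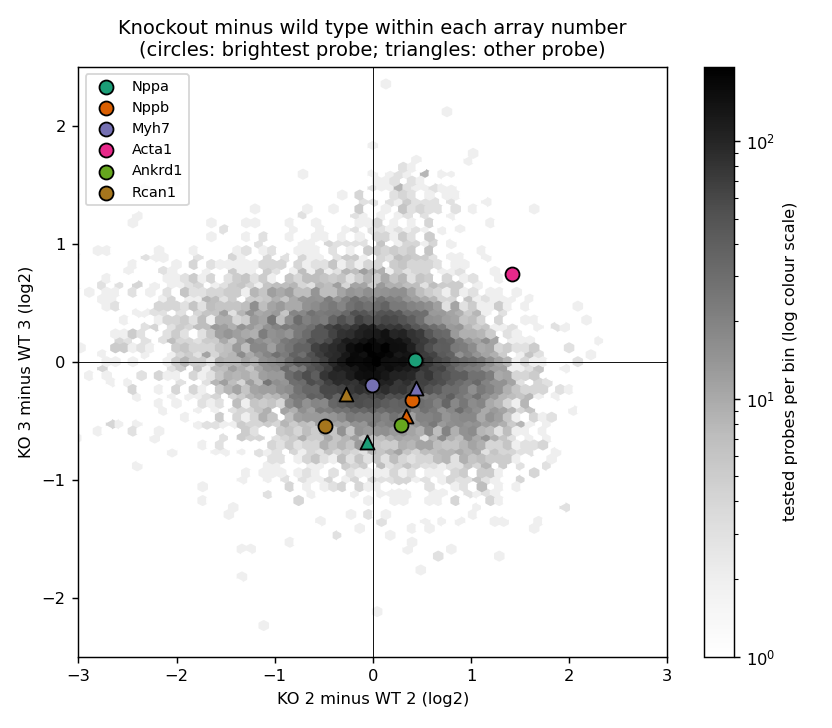
KO minus WT within array number 2 (horizontal axis) and number 3 (vertical axis), both in log2 units; grey bins count all 28304 tested probes, circles are the brightest and triangles the other probe of a gene. Acta1 lies apart at 1.42 and 0.74, and Rcan1 lies below 0 on both axes at -0.48 and -0.55.

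**Figure D4:**
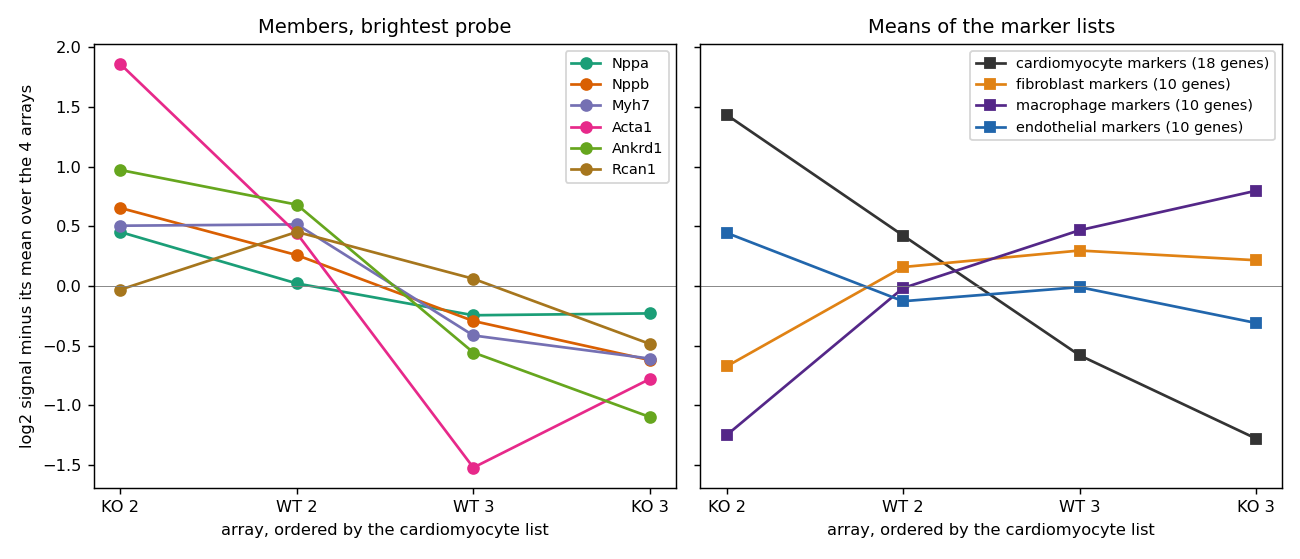
Brightest probe of each member (left) and means of 4 marker lists (right) on each array, in log2 units after subtracting the mean over the 4 arrays; arrays are ordered by the cardiomyocyte list. Nppb and Ankrd1 step down in that order like the cardiomyocyte list, and macrophage markers step up from 2.28 on KO 2 to 4.33 on KO 3 before centring.

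Likeness between patterns was described by the root-mean-square difference of values centred over the 4 arrays, in log2 units. It was not scaled by how far a gene itself varied over the arrays. Among the members the closest pair was Nppb and Myh7 (0.16), followed by Nppa and Nppb (0.25), and the farthest was Acta1 and Rcan1 (1.24). Of 15056 other tested genes, those near to Nppa included Gstz1 (0.0105) and Slc25a16 (0.011). Nearest to Nppb were Kcnj8 (0.0358), Trap1 (0.0374) and Rtp3 (0.0395). For Myh7 they were Rab10os (0.0241), Coq10a (0.0381) and Ntm (0.0599). A pattern over 4 arrays has few points, so these names describe the table and no more. For Ankrd1 they were Rrad (0.0562), Mpped2 (0.0727) and D630033O11Rik (0.0736). Rcan1 was nearest to Gm2137 (0.0439), Mettl7a2 (0.0446) and Zfp316 (0.0718). Acta1 had no gene as close, the nearest being Zfp975 (0.118), Ung (0.153) and Tnfrsf19 (0.171). Its own root-mean-square deviation from its mean was also the largest, 1.28 against 0.28 (Nppa) to 0.85 (Ankrd1) for the other members. The larger distances of Acta1 therefore do not show an unusual pattern.

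The genes that process, receive and clear the natriuretic peptides showed no common shift. Of 12 tested, 7 were higher and 5 lower in KO, 0 were called, and the median was 0.14, beside 0.04 over all tested genes, with 0.39 at number 2 and -0.11 at number 3. Among ligand and proteases, Nppc, which encodes the C-type peptide, differed by -0.01, the pro-ANP convertase Corin by 0.15 and Furin by 0.27. The guanylyl cyclase receptor genes Npr1 and Npr2 differed by -0.29 and -0.02, and the clearance receptor gene Npr3 by 0.44. The levels of Nppc, Npr1 and, outside KO 2, Mme were low, where the lowest levels well above background were -5.90 to -5.41 by array. Npr1 ranged from -5.44 to -4.32, and Nppc was well above background on 3 of the 4 arrays. Mme, which encodes the peptide-degrading neprilysin, had both KO arrays above both WT arrays, at -3.11 and -4.56 against -4.74 and -4.67, and a difference of 0.87 (standard error 0.57, limma adjusted p = 0.9999). Nearly all of the Mme difference came from KO 2, since it was 1.64 at number 2 and 0.10 at number 3. The protease gene Ide differed by 0.15 and the cyclic GMP-dependent kinase gene Prkg1 by 0.13. Of the cyclic GMP phosphodiesterases, Pde5a had both KO arrays below both WT arrays, at -2.23 and -1.84 against -1.77 and -1.58, with a difference of -0.36 (standard error 0.26, limma adjusted p = 0.9999). Pde9a differed by -0.10 and Pde2a by 0.24. In this list Mme was thus 1 of 12 with both KO arrays above, and Pde5a 1 of 12 with both below. Of all tested probes, 13.1% and 10.9% were so placed.

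Contractile and metabolic genes that switch between the fetal and adult heart were higher in KO for 16 of 21, with 0 called and a median of 0.25. This was 0.97 at number 2 and -0.30 at number 3, with 18 of 21 of opposite sign. Of all tested probes, 24.8% were higher and 21.7% lower in KO at both numbers. The extremes of this list were Myl7 at 3.84 and Myh6 at -0.19. Titin and Z-disc stretch sensors, the group of Ankrd1, were higher for 15 of 16, with 0 called and a median of 0.24, again made of 1.06 at number 2 and -0.41 at number 3. Their extremes were Myot, the Z-disc protein myotilin, at 1.15 and the ubiquitin ligase gene Trim63 at -0.06. The lists are not separate from the markers: Myh6, Actc1, Tnni3, Tnnt2, Myl2 and Atp2a2 of the isoform list are also cardiomyocyte markers. So is Ttn of the Z-disc list, and Myl4 and Myl7 are also atrial markers. In both lists the KO 2 array was high with the cardiomyocyte markers, and the part of those in the lists was not tested. Without KO 2 the medians were -0.73 and -0.79, and those of the natriuretic peptide and calcineurin lists were -0.14 and -0.10.

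Calcineurin, NFAT and MEF2 genes, the group around Rcan1, were higher for 16 of 23 and lower for 7, with 0 called and a median of 0.12. Of these, 4 had both KO arrays above both WT arrays, namely the regulatory subunit gene Ppp3r1, Akap5, Myoz1 and Prkd1, and 3 had both below, namely Nfatc2, Nfatc4 and Cabin1, beside 13.1% and 10.9% of all tested probes. The Z-disc calcineurin-binding gene Myoz1 was -2.99 and -2.90 in WT and -2.21 and -2.15 in KO, a difference of 0.77 (standard error 0.21, limma adjusted p = 0.9999). The anchoring protein gene Akap5 had the largest difference at 1.30 (0.47 at number 2, 2.14 at number 3). Nfatc2, which encodes a transcription factor that calcineurin activates, had the lowest at -0.51, and Nfatc4 was also at -0.51.

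Transcription factors of the fetal programme were higher for 10 of 16, with 0 called and a median of 0.18, from Hand2 at 0.39 to the SRF coactivator gene Mrtfa at -0.33. This median was 0.35 at number 2 and -0.16 at number 3, with 13 of 16 of opposite sign, and -0.27 without KO 2. Beside this count, 24.8% of all tested probes were higher and 21.7% lower in KO at both numbers. Infarct border-zone genes were split evenly, 7 and 7, with 0 called and a median of 0.0047, from Tubb6 at 0.57 to Uchl1 at -0.63. Here Clu, Enah and Des had both KO arrays below both WT arrays and Nes both above, 3 and 1 of 14, beside 10.9% and 13.1% of all tested probes. Of the other cell types, fibroblast markers were lower for 9 of 10 with a median of -0.51 and macrophage markers for 10 of 10 with a median of -0.43. Endothelial markers were higher for 8 of 10 with a median of 0.18 and smooth muscle markers for 5 of 7 with a median of 0.14. In these 4 lists 0 genes were called. The fibroblast median was -0.86 at number 2 and -0.0017 at number 3, and the macrophage median was -1.33 and 0.28. The endothelial median was 0.55 at number 2 and -0.29 at number 3, and the smooth muscle median -0.09 and 0.32. Without KO 2 the fibroblast, macrophage, endothelial and smooth muscle medians were -0.03, 0.60, -0.26 and 0.82.

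**Figure D5:**
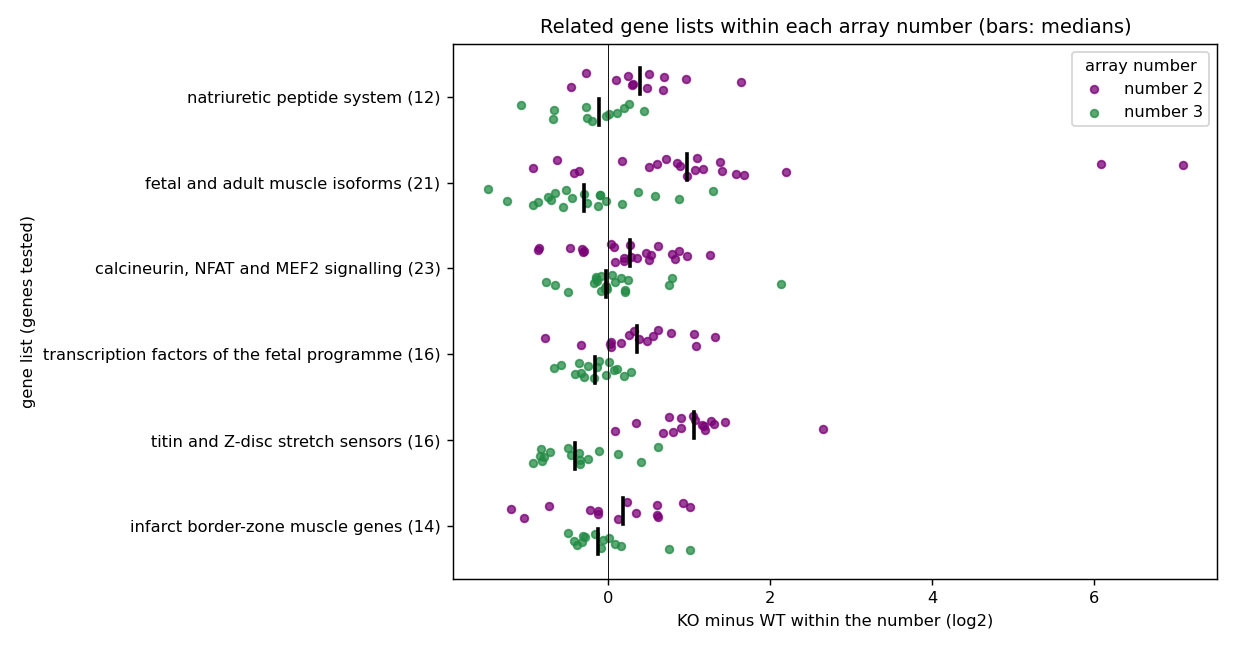
KO minus WT within array number 2 (purple) and number 3 (green), in log2 units (horizontal axis), for each tested gene of 6 lists (vertical axis); black bars are medians. The medians of the muscle isoform list (0.97 and -0.30) and of the titin and Z-disc list (1.06 and -0.41) lie on opposite sides of 0.

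The promoters of 4 members are shown because they are textbook targets of GATA, SRF, TEAD and NFAT factors, from 250 bases before to 50 after the RefSeq start (GRCm38.p6). All 6 members matched the table, with 8 promoters. Both strands were searched, and a match describes the letters only. In Nppa (chr4:148000472-148000771, plus strand) and Nppb (chr4:147985650-147985949, plus strand), whose starts lie 14822 bases apart, capitals mark TATAAA and the binding motif of GATA factors on either strand, spelled GATAA. Of 32851 promoters 13.6% held the first and 25.4% the second.
Nppa promoter: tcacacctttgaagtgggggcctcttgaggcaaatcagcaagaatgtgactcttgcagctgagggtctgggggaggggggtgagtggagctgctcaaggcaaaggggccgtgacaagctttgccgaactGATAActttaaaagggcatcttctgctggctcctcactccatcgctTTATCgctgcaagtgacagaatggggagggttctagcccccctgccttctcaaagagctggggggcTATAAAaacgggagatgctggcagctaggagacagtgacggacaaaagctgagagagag
Nppb promoter: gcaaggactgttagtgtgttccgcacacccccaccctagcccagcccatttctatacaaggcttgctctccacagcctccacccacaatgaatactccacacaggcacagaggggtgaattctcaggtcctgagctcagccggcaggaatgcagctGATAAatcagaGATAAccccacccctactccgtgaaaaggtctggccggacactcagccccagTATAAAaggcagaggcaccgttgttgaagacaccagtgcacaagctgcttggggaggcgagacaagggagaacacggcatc
Both held 1 TATAAA and 2 GATAA, at -121 and -75 from the start in Nppa and at -94 and -83 in Nppb. In Acta1 (chr8:123894726-123895025, minus strand) capitals mark TATAAA, the SRF-binding CArG box and the TEAD-binding M-CAT motif CATTCC. The CArG box was searched as CC, any 6 letters of A or T, then GG, and was found in 1.6% of promoters, and the M-CAT motif in 14.7%.
Acta1 promoter: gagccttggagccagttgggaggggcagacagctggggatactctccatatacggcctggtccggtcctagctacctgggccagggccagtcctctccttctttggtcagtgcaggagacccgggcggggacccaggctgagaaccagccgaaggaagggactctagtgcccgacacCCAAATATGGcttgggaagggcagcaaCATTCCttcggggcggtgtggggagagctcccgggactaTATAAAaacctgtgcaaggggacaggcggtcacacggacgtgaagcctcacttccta
The CArG box stood at -73 and CATTCC at -46. CATTCC was also found once in Nppb, at -105, once in 1 of the 2 Myh7 promoters, at -201, and in Ankrd1 at -210 and -123 (chr19:36119795-36120094, minus strand). Rcan1 has 2 promoters in the table. The inner one (chr16:92400029-92400328, minus strand) held GGAAA, the core bound by NFAT, 3 times, marked in capitals on either strand, and the outer one (chr16:92466120-92466419) did not.
Rcan1 inner promoter: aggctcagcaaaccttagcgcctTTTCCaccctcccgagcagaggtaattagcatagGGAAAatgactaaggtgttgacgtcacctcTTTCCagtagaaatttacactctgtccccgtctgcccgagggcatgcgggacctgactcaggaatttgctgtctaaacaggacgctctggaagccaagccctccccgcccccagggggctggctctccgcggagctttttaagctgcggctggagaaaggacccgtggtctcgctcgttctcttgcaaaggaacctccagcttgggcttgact
The same letters were found 3 times in 1 Myh7 promoter and 2 times in the other, and in 61.3% of all promoters. Ankrd1 held 1 GATAA, at -47, and no TATAAA. None of these letters was measured on the arrays, and the files hold no binding or histone data to set beside the expression of these 6 genes.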

How the data were processed

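RNA from the left ventricle of 2 WT and 2 KO samples was measured on Agilent one-colour arrays. The authors deposited spot intensity values from Agilent Feature Extraction (10.7 in the submitters' processing notes, 10.7.3.1 in the file headers), background-subtracted and detrended by that software, on grids annotated on mm9. They also deposited a log2 table normalized in GeneSpring by a method not given in the sources used here; on each array 99.90% to 99.96% of the rows came within 0.01 of quantile-normalized scanner values, and each column's median was 6.78. It served as an alternative.

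Each array held 45018 spots, 43379 of them non-control. No spot was saturated, those with an outlier flag (92 to 116) were dropped, and 68.15% to 72.04% of probes were well above background. Their number limits the precision. Replicate spots were averaged, and log2 processed signals were shifted by the array's 75th percentile. Probes well above background on both arrays of a group were tested with limma 3.58.1 under R 4.3.3 (lmFit, eBayes), with p-values adjusted over all of them by Benjamini-Hochberg, and called at adjusted p under 0.05 and fold change over 2. Scripts were tested on simulated data. Of 41174 probes, 31437 matched a RefSeq symbol, 2200 an older symbol and 91 an accession.

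The members and gene lists were chosen with earlier results of these data known, so lists are described by counts and medians without a test. Always named were the members, the natriuretic peptide genes, close paralogs, the largest rise and fall of each other list, and 3 genes nearest in pattern; genes beyond these were named after their values were seen. A single one of the genes near in pattern is not reported here. Alternatives were normexp (offset 50), quantile, median and cardiomyocyte-list scaling, other filters, the authors' values, the replicate block, each array left out, the mean of a gene's probes and the methods' t-test.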

Additional observations from a re-analysis of the deposited data

Results flagged for a closer look

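The X-inactivation transcript Xist, which belongs to no comparison here, read 14.13 (WT 2) and 13.24 (KO 2) in unscaled log2 signal, where the arrays numbered 3 read 1.92 (WT 3) and 2.01 (KO 3). It is listed because its signal appeared on arrays whose samples are all labelled male. Ddx3y, on the Y chromosome, was 11.88 on WT 3 and 11.44 on KO 3 and 2.12 and 1.63 on WT 2 and KO 2. The split follows the array number, so it falls alike on both genotypes. All 6 members were higher on number 2 than on number 3 in both genotypes; the part of this split in those values was not tested.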

How the results depend on the processing

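The mean difference of Rcan1 kept its direction under every alternative run, and that of Acta1 under all but the one without KO 2. Without WT 3, however, Acta1 was only 0.099 higher in KO. With cardiomyocyte scaling Rcan1 was 0.152 higher in KO at number 3. With all arrays kept, no member was called. Of the members' differences, 52 kept and 8 turned direction with all arrays, and 16 kept and 8 turned with an array left out. The other filters, the replicate block and the methods' t-test cannot change a mean difference, so their part of the 52 was fixed. Quantile normalization and the authors' values gave nearly the same differences, so they are hardly separate alternatives. Nppa and Nppb were -0.149 and -0.244 with quantile normalization and -0.161 and -0.244 with the authors' values, where 5 of 6 members were lower in KO. With cardiomyocyte scaling Nppb was -0.123, 1 probe that is no member was called (lowest limma adjusted p = 0.0324), and the median of all probes was -0.14. With normexp that median was 0.13. With the mean of a gene's probes Nppa was -0.074, Nppb -0.013 and Myh7 0.0037. Leaving out each array gave -0.118 to 0.564 for Nppa, -0.603 to 0.671 for Nppb, -0.659 to 0.454 for Myh7, -0.238 to 2.40 for Acta1 and -1.16 to 0.909 for Ankrd1. The count of members over 2-fold, 1 here, was 0 with quantile normalization, cardiomyocyte scaling, the authors' values and without WT 3, and 0 to 1 with an array left out; without KO 2 the 1 gene was Ankrd1, lower in KO, and not Acta1. All probes over 2-fold numbered 949 (29.8% higher), 209 with normexp (39.7% higher), 2110 without a filter (44.3% higher), 472 with all arrays above background and 1185 with cardiomyocyte scaling (14.2% higher). They numbered 1953 without WT 2 (48.0% higher), 1087 without WT 3, 1645 without KO 2 (40.4% higher) and 5683 without KO 3 (48.4% higher). Arrays of 1 number deviated together (r = 0.569 across tested probes), but with 2 pairs this does not establish pairing; the replicate block left the members' differences as they were (Acta1 1.08) but gave Acta1 an unadjusted limma p of 0.0284 against 0.428 without it (adjusted p = 0.9949), so that 1 of 6 members against 0 stood under 0.05, with 602 against 410 probes at an unadjusted p under 0.05, 0 called and a lowest limma adjusted p of 0.9949. The methods' t-test gave 88 probes over 2-fold at an unadjusted p under 0.05, 0 after Benjamini-Hochberg and 0 members. Slide and scan day could not be fitted as a block, with 1 of each. Where an array is left out, the spread of the remaining one was taken from the other genotype. The causes of these shifts were not tested, and 2 arrays per group limit every statement.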
